A study of Ovis aries with 4 samples.

Results

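Luminal cells line the alveoli and ducts of the mammary gland and were taken here as cells with at least 1 UMI (unique molecular identifier, a counted transcript) of EPCAM and at least 1 of CLDN4, which encode an epithelial adhesion molecule and a tight junction claudin. Those whose LTF UMIs exceeded their SPP1 UMIs formed the class described here, called LTF>SPP1 cells. Cells with any UMI of the T cell gene CD3E or the macrophage gene C1QA, with 5 or more UMIs of the fibroblast gene DCN, or with over 20% mitochondrial UMIs were left out. The class held 2015 of the 4107 luminal cells so chosen, and of 39246 barcodes in all. The other 2092 luminal cells had SPP1 at or above LTF and are called SPP1>=LTF cells.

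The cells came from mammary gland tissue of 4 lactating ewes (Ovis aries), captured in 10x droplets for single-cell sequencing, 1 library for each ewe. The libraries were labelled LL replicates 1 and 2 and LH replicates 1 and 2. The series abbreviates late lactation as LL, which leaves peak lactation for LH. The sources used here name no breed, age, parity or treatment. With 2 ewes per stage, a difference between stages can also be a difference between ewes.

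LTF encodes lactoferrin, an iron-binding antimicrobial protein of milk that secretory epithelium makes in larger amounts when milk is removed less often. SPP1 encodes osteopontin, a calcium-binding phosphoprotein secreted into milk by the same epithelium. PAEP (beta-lactoglobulin, a whey protein abundant in ruminant milk), CCL28 (a chemokine that draws antibody-secreting cells to mucosal glands) and ALDH1A1 (an enzyme of retinoic acid synthesis also used as a marker of luminal progenitors) were the further markers of the class.

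The LL libraries held 12733 and 11178 barcodes and the LH libraries 5955 and 9380, with 60303230 and 65339993 against 28015149 and 56178927 total UMIs. LTF>SPP1 cells had medians of 12511 and 11860 UMIs in LL and 18968 and 9338 in LH, above the library medians of 2693 to 3294. Their median mitochondrial percentage was 4.47 and 4.42 in LL and 4.94 and 1.98 in LH, so LH replicate 2 stood apart. A doublet score marked 7 and 62 of them in LL and 0 and 4 in LH. Pairs of libraries shared 15 to 39 cell barcode sequences, at most 0.384% of the smaller library.

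LTF>SPP1 cells numbered 357 and 1523 in the LL ewes and 35 and 100 in the LH ewes. They made up 56.3% and 82.4% of the luminal cells in LL, against 20.1% and 6.90% in LH. Exact (Clopper-Pearson) 95% intervals, for counting error alone, were 52.3% to 60.2% and 80.6% to 84.1% in LL and 14.4% to 26.8% and 5.65% to 8.32% in LH. Both LL ewes lay above both LH ewes, with means of 69.3% ± 18.4 in LL and 13.5% ± 9.35 in LH (SD, n = 2 each). The difference of 55.8 percentage points had an exact two-sided permutation p of 0.333, the smallest that 2 ewes against 2 allow. Because LTF and SPP1 themselves define the class, this share describes the balance of those genes in luminal cells. Of all barcodes past the mitochondrial limit, the class was 2.82% and 13.8% in LL and 0.598% and 1.07% in LH, a difference of 7.48 percentage points. All luminal cells together were 5.02% and 16.8% in LL and 2.97% and 15.5% in LH, so their ranges overlapped. These are shares of dissociated cells and not of tissue.

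**Figure D1:**
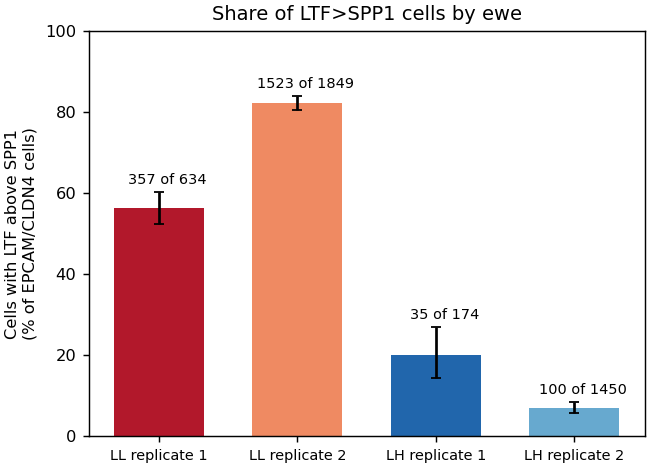
Bars show LTF>SPP1 cells as a percentage of EPCAM/CLDN4 cells in each ewe, with exact 95% intervals for counting error as error bars and the numbers of cells above them. The LL ewes stood at 56.3% and 82.4% and the LH ewes at 20.1% and 6.90%.

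The values that chose the class are given as a description. LTF stood at 4225 and 5556 CPM (UMIs of the summed cells brought to a common total, here without scaling factors) in the LTF>SPP1 cells of LL and at 3789 and 3443 CPM in those of LH. In SPP1>=LTF cells LTF was still at 615 and 1371 CPM in LL and 1261 and 1200 CPM in LH. SPP1 was at 736 and 1095 CPM in the LTF>SPP1 cells of LL, and at 2325 and 2218 CPM in those of LH. The class therefore carried more SPP1 in both LH ewes than in both LL ewes, while LTF differed less. In SPP1>=LTF cells SPP1 was at 1623 and 2522 CPM in LL and 4239 and 5117 CPM in LH. EPCAM was at 448 and 448 CPM in the LTF>SPP1 cells of LL and 451 and 499 CPM in those of LH, and CLDN4 at 305 and 283 CPM in LL and 172 and 248 CPM in LH.

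Single cells of the class spread widely. The median cell had 40 and 62 LTF UMIs in LL and 57 and 21 in LH, and the highest cell of each library had 1048 and 941 in LL and 410 and 519 in LH. SPP1 medians were 3 and 10 UMIs in LL and 33 and 10.5 in LH. No SPP1 UMI at all was found in 105 and 198 LTF>SPP1 cells of LL and in 0 and 8 of LH. Cells lay close to the threshold on both sides: LTF led by only 1 or 2 UMIs in 49 and 58 members in LL and in 2 and 27 in LH. SPP1 led by 1 or 2 UMIs in 26 and 47 cells just outside in LL and in 8 and 63 in LH. Cells with neither gene fell to the SPP1>=LTF class by the rule. They were 114 and 41 cells in LL, or 41.2% and 12.6% of that class, and 3 and 20 in LH, or 2.16% and 1.48%. The 114 cells of LL replicate 1 had a median of 13810 UMIs and only 3.17 CPM of CCL28.

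**Figure D2:**
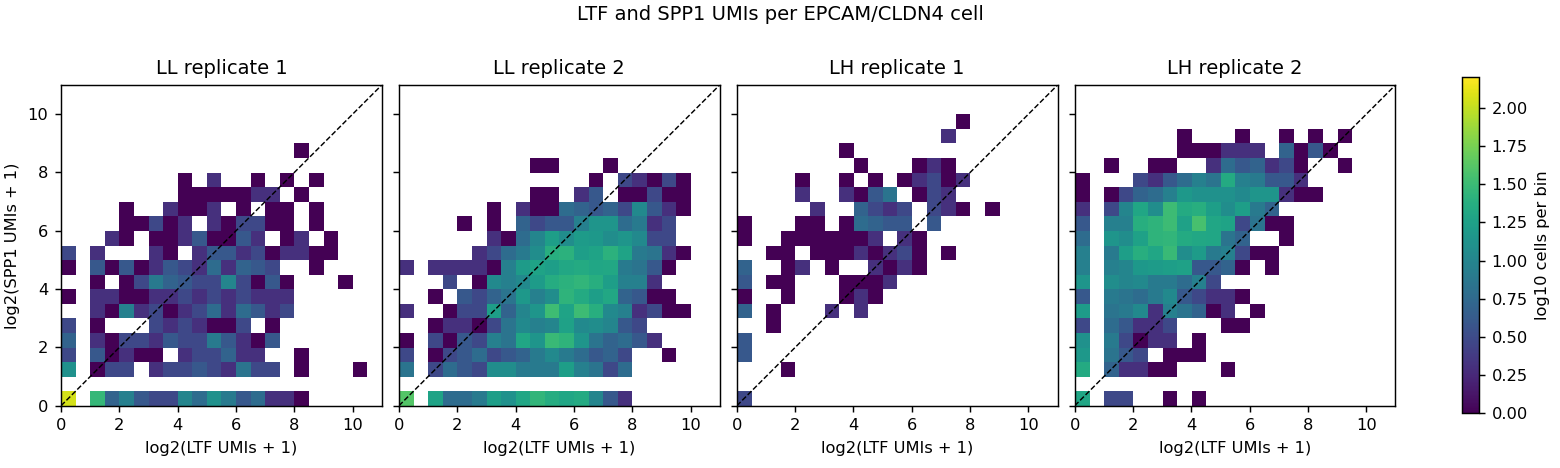
Each panel is 1 ewe, with log2(LTF UMIs + 1) across and log2(SPP1 UMIs + 1) up, and colour gives the log10 number of luminal cells per bin. The dashed line is equal UMIs, and cells below it are LTF>SPP1 cells. Most cells of LL replicate 2 (1523 of 1849) lie below it, and most cells of LH replicate 2 (1350 of 1450) lie on or above it.

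Markers that the rule did not use were present in the class. After each cell was thinned to 3000 UMIs, which left out 6 and 15 members in LL and 0 and 4 in LH, PAEP was detected in 79.5% and 91.3% of LTF>SPP1 cells in LL and 80.0% and 76.0% in LH. Without thinning these values were 90.5% and 96.8% in LL and 100% and 91.0% in LH. Cells with CD3E and no EPCAM, which should lack PAEP, had it in 12.5% and 15.2% of thinned cells in LL and 0.639% and 10.6% in LH. Only the deeper CD3E cells could be thinned, 488 of 1120 and 290 of 863 in LL and 1564 of 2422 and 245 of 622 in LH. CCL28 was detected in 39.3% and 46.3% of thinned LTF>SPP1 cells in LL and 25.7% and 33.3% in LH, against at most 3.67% of the CD3E cells. ALDH1A1 was detected in 35.3% and 16.2% in LL and in 2.86% and 14.6% in LH, with both LL ewes above both LH ewes. The CD3E cells had it in 4.71% and 5.17% in LL and 0.639% and 0.408% in LH. The 2.86% of LH replicate 1 lay below the CD3E cells of both LL libraries. Median depths before thinning were 9338 to 18968 UMIs in the class and 2490 to 3420 UMIs in the CD3E cells.

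Markers of T cells, macrophages, mast cells and lymphatic endothelium were low, while those of fibroblasts and contractile cells were higher. The 5 named T cell markers outside the rule summed to 3.54 and 3.45 CPM in LTF>SPP1 cells of LL and to 6.25 and 1.48 CPM in those of LH, with CD3D at 0 in all 4 ewes. The 4 named macrophage markers summed to 11.4 and 7.13 CPM in LL and 3.75 and 8.15 CPM in LH, and 2 mast cell markers to at most 1.93 CPM. The 8 named fibroblast markers summed to 1420 and 320 CPM in LL and 474 and 403 CPM in LH, mostly from GSN (gelsolin, an actin-severing protein that epithelium also makes). GSN alone was at 1379 and 328 CPM in LL and 500 and 425 CPM in LH on the TMM scale used below. The 7 named contractile-cell markers summed to 238 and 128 CPM in LL and 250 and 269 CPM in LH. TPM1 alone was at 197 and 113 CPM in LL and 260 and 226 CPM in LH on the TMM scale. The 2 named lymphatic endothelium markers summed to 17.9 and 10.5 CPM in LL and 12.5 and 8.89 CPM in LH. No B cell or neutrophil marker of the lists had a symbol. The part of any of these in the results below was not tested.

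The next question was which genes other than LTF and SPP1 went with the class within an ewe. UMIs were summed per ewe and class and compared by the quasi-likelihood test of edgeR with the ewe as a block. The 7 genes of the rule were left out, and CPM here use totals scaled by TMM (trimmed mean of M-values). Of 10573 genes, 197 were higher in LTF>SPP1 cells (1.86%) and 242 lower (2.29%) at a Benjamini-Hochberg adjusted p under 0.05, 439 or 4.15% in all. Among the 455 tested genes with a symbol, 29 were higher (6.37%) and 13 lower (2.86%), 42 or 9.23% in all. Both classes came from the same libraries, and the cells were chosen by LTF and SPP1, so genes that go with either are part of this list. With totals left unscaled, all genes shifted by a median of -0.15 log2, and 80 were higher and 515 lower. Without the ewe as a block 0 genes passed in edgeR, although 736 had an unadjusted p under 0.05, and without LL replicate 2 the count was 73.

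PAEP had the largest rise of the named genes. It stood at 3532, 3911, 1647 and 1296 CPM in LTF>SPP1 cells of LL replicates 1 and 2 and LH replicates 1 and 2, against 1589, 757, 595 and 689 CPM in SPP1>=LTF cells of the same ewes. It was higher in all 4 ewes, with a log2 difference of 1.47 ± 0.19 (SE, 4 ewes; edgeR adjusted p = 0.00324). PMP22, a membrane protein of myelin and of epithelial junctions, was at 142, 86.5, 108 and 56.0 CPM against 51.5, 24.0, 38.7 and 45.3 CPM in the same order of ewes (log2 1.30 ± 0.21; edgeR adjusted p = 0.00792). KDR, the main receptor of vascular endothelial growth factor, was at 68.0, 71.8, 53.5 and 47.9 CPM against 29.5, 51.0, 22.1 and 29.1 CPM (log2 0.87 ± 0.15; edgeR adjusted p = 0.0125). KDR is also an endothelial marker. The 3 named blood endothelium markers, KDR with the adhesion genes SELE and SELP, summed to 75.02, 66.8, 49.98 and 43.7 CPM (unscaled totals) in LTF>SPP1 cells against 43.7, 53.7, 22.6 and 29.2 CPM in SPP1>=LTF cells. In LTF>SPP1 cells SELE was at 0 in LL replicate 2 and both LH ewes and SELP in both LH ewes, and both were detected in LL replicate 1. The part of endothelial RNA in the KDR values was not tested.

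CCL28 rose as well, with 186, 233, 110 and 146 CPM in LTF>SPP1 cells against 83.0, 164, 80.2 and 124 CPM in SPP1>=LTF cells of the same ewes (log2 0.60 ± 0.14; edgeR adjusted p = 0.0423). The call was lost without LL replicate 1, LL replicate 2 or LH replicate 1, and with unscaled totals. It held, at 0.37 log2, without cells of neither gene (edgeR adjusted p = 0.0329). ALDH1A1 did not pass, at 185, 70.6, 10.7 and 32.5 CPM against 75.9, 46.2, 12.8 and 31.3 CPM (log2 0.67 ± 0.20; edgeR adjusted p = 0.0980). With thinned cells and without the low count filter ALDH1A1 did pass as higher. It was higher in LTF>SPP1 cells in both LL ewes and LH replicate 2, and lower in LH replicate 1. Of the 3 marker genes outside the rule, 2 thus rose with the class, beside 6.37% of the tested genes with a symbol. The markers were chosen with earlier results of these data known, so this count describes the class and does not test it. CSN3 (kappa-casein) did not pass either, at 668, 5.38, 1.34 and 4.06 CPM against 581, 3.43, 5.81 and 4.24 CPM (log2 0.20 ± 0.18; edgeR adjusted p = 0.641), and lay below 0 without cells of neither gene (log2 -0.28).

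Of 10 tested immediate early and growth arrest genes, 4 rose and 0 fell. Of the 455 tested genes with a symbol, 29 rose (6.37%) and 13 fell (2.86%). The list's median log2 difference was 0.25 beside 0.00 for all genes. BTG2, an inhibitor of cell cycle entry, was at 740, 744, 313 and 567 CPM in LTF>SPP1 cells against 459, 329, 225 and 435 CPM in SPP1>=LTF cells (log2 0.69 ± 0.12; edgeR adjusted p = 0.0131). ZFP36, which destabilises cytokine transcripts, had a log2 difference of 0.54 and KLF4, a transcription factor of epithelial differentiation, one of 0.60. FOS, part of the AP-1 transcription factor, was at 4299, 4993, 4591 and 6701 CPM against 3406, 3333, 3294 and 6091 CPM (log2 0.38 ± 0.07; edgeR adjusted p = 0.0146). With unscaled totals 3 of the 10 rose, FOS not among them, and its call was also lost without LL replicate 2 or LH replicate 1. UBB, which encodes ubiquitin, was at 2875, 4820, 4054 and 5248 CPM against 2056, 2668, 2566 and 4177 CPM (log2 0.58 ± 0.08; edgeR adjusted p = 0.00397).

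The 13 mitochondrially encoded genes of the respiratory chain differed little in size but mostly in 1 direction. Of them 12 lay above 0, 7 rose and 0 fell, with a median log2 difference of 0.26. Of all 455 tested genes with a symbol, 267 lay above 0, 29 rose (6.37%) and 13 fell (2.86%). CYTB, of complex III, was at 6699, 9237, 7659 and 4378 CPM in LTF>SPP1 cells against 5450, 8042, 5859 and 3618 CPM in SPP1>=LTF cells (log2 0.29 ± 0.05; edgeR adjusted p = 0.0101). DESeq2 called 4 of the 13, and with unscaled totals 11 lay above 0 but 0 passed in edgeR. The call of CYTB was also lost without LH replicate 1, with a margin of 3 UMIs and without cells of neither gene. In LL replicate 2 the 13 genes summed to less in LTF>SPP1 cells, at 45937 against 46860 CPM (unscaled totals). They summed to more in LL replicate 1 and in both LH ewes. The 6 tested nuclear genes of oxidative phosphorylation had a median of 0.18, and 0 passed in edgeR. With unscaled totals 3 of those 6 lay above 0, against 6 with TMM.

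Other named rises were of moderate size, between 0.45 and 0.84 log2. They were HACD1 (fatty acid elongation), TUBA4A (an alpha-tubulin), PDXK (vitamin B6 activation), GGCX (vitamin K-dependent carboxylation), SLC25A4 (the mitochondrial ADP/ATP carrier) and CLDN7 (a tight junction claudin). CLDN7 was at 518, 509, 669 and 719 CPM in LTF>SPP1 cells against 366, 291, 556 and 627 CPM in SPP1>=LTF cells (log2 0.45 ± 0.10; edgeR adjusted p = 0.0396). GGCX, SLC25A4 and CLDN7 lost their calls with unscaled totals and without at least 3 of the 4 ewes in turn. Without LL replicate 2 the calls of PMP22, TUBA4A, BTG2, KLF4, ZFP36, HACD1 and PDXK were lost, the last 2 also without LH replicate 2. With thinned cells HACD1, KLF4, GGCX and SLC25A4 lost their calls, and with a margin of 3 UMIs GGCX and SLC25A4 did.

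GHR, the growth hormone receptor, fell in the class and was the only 1 of 5 tested hormone signalling genes to pass. It was at 79.5, 47.2, 69.6 and 77.1 CPM in LTF>SPP1 cells against 280, 120, 148 and 143 CPM in SPP1>=LTF cells (log2 -1.33 ± 0.14; edgeR adjusted p = 0.00169). The difference passed but was smaller with a margin of 3 UMIs between the genes of the rule (log2 -0.61; edgeR adjusted p = 0.0402) and without cells of neither gene (log2 -0.73; edgeR adjusted p = 0.00362). STAT5A, which carries the prolactin signal, was at 31.4, 42.5, 58.9 and 38.9 CPM against 33.1, 39.7, 52.6 and 38.1 CPM (log2 0.05 ± 0.11; edgeR adjusted p = 0.882). ARNT2, a partner of bHLH-PAS transcription factors, was at 12.4, 17.9, 24.1 and 21.1 CPM against 36.6, 31.4, 39.0 and 33.1 CPM (log2 -0.98 ± 0.17; edgeR adjusted p = 0.0125).

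MX1, an interferon-induced antiviral GTPase, was at 16.8, 14.0, 4.01 (3 UMIs) and 38.1 CPM in LTF>SPP1 cells against 56.6, 17.1, 12.8 and 66.9 CPM in SPP1>=LTF cells (log2 difference -0.997 ± 0.23; edgeR adjusted p = 0.0396). It was the 1 of 9 tested antigen presentation and interferon genes to pass in edgeR. DESeq2 called PSMB8, an immunoproteasome subunit, higher beside it, and with unscaled totals MX2, a relative of MX1, passed as lower too. The remaining named falls were ST6GAL1 (a sialyltransferase), HEXA (a lysosomal hexosaminidase), GGTA1 (alpha-galactosyl transfer), CAST (the calpain inhibitor) and CCND3 (cyclin D3), between -0.96 and -0.40 log2. The calls of ST6GAL1, GGTA1 and CAST were lost without LL replicate 1, LL replicate 2 or LH replicate 1, and that of CCND3 without any of the 4 ewes. HEXA lost its call without either LL ewe, ARNT2 without LL replicate 2, and MX1 without LL replicate 1 or either LH ewe. With thinned cells the calls of MX1, ARNT2, ST6GAL1, HEXA and GGTA1 were lost. With a margin of 3 UMIs those of MX1, ST6GAL1, HEXA, GGTA1, CAST and CCND3 were lost. When cells with neither LTF nor SPP1 were left out of the other class, an alternative chosen after the data were seen, 331 genes passed, 221 of them shared with the 439. MX1, ST6GAL1, HEXA, GGTA1, CAST, CCND3, GGCX and CYTB did not pass there, while GHR, PAEP, KDR and UBB did.

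**Figure D3:**
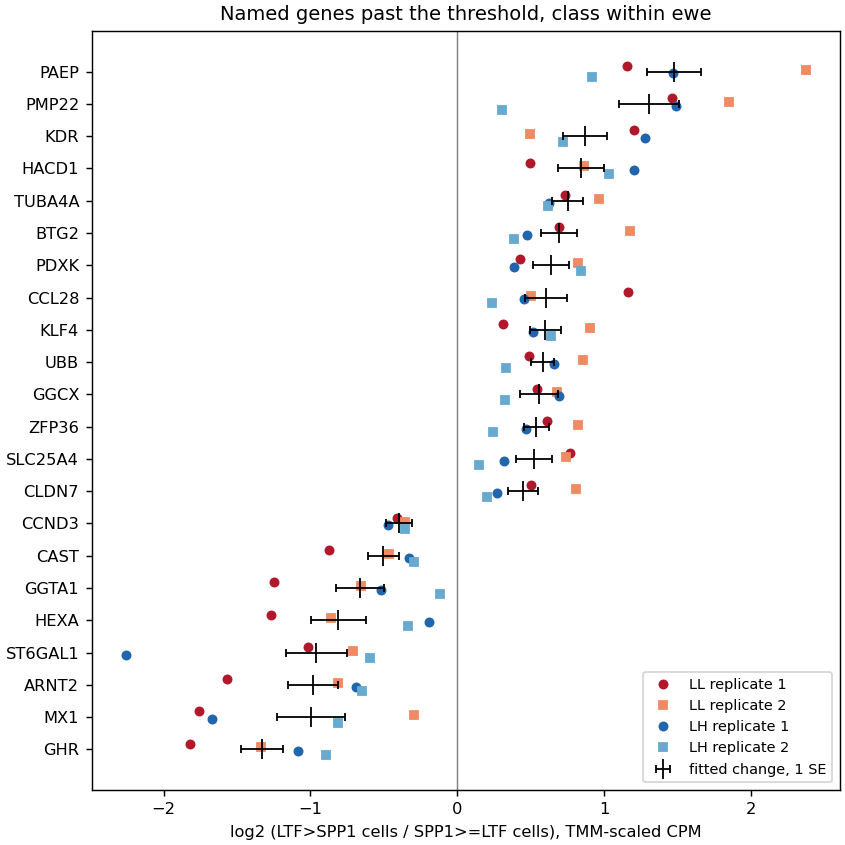
Points give, for each ewe, the log2 ratio of TMM-scaled CPM in LTF>SPP1 cells to that in SPP1>=LTF cells for the named genes past the threshold. Black marks give the fitted difference with 1 SE. PAEP (1.47) lies highest and GHR (-1.33) lowest. For each gene all 4 ewes lie on the same side of 0, as the naming rule required.

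Milk synthesis lists were otherwise close to the median of all genes. Of 12 tested milk fat genes 0 passed and the median was -0.12. Of 7 ion and nutrient transport genes 0 passed. SLC12A2, a sodium-potassium-chloride cotransporter, was at 287, 337, 266 and 264 CPM in LTF>SPP1 cells against 249, 437, 448 and 376 CPM in SPP1>=LTF cells (log2 -0.34 ± 0.13; edgeR adjusted p = 0.201). SLC12A2 did pass as lower with a margin of 3 UMIs, without cells of neither gene, without LL replicate 1 and without the low count filter. Of 12 tested genes of the involution list outside the rule 0 passed, with a median of 0.04. IGFBP5, a binding protein of insulin-like growth factors, was at 32.2, 55.3, 2.68 (2 UMIs) and 38.9 CPM against 77.7, 89.9, 42.7 and 37.1 CPM (log2 -0.90 ± 0.27; edgeR adjusted p = 0.107). IGFBP5 did pass as lower with thinned cells, without LH replicate 2 and without the low count filter. Of 5 cell cycle genes 0 passed in edgeR with TMM, and 1 lay above 0. With RLE scaling 1 was called lower (AURKA, a mitotic kinase), and with unscaled totals 2 (AURKA and CDK1, the kinase of mitotic entry) with 0 above 0.

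Levels were also read along the LTF share of LTF plus SPP1 UMIs, without a test since that share is what the rule cuts. PAEP in LL replicate 2 was 390, 601, 942, 1604, 3158 and 5326 CPM (unscaled totals) in cells with shares of 0 to 10%, 10 to 30%, 30 to 50%, 50 to 70%, 70 to 90% and 90 to 100%. LL replicate 1 differed, with 793 CPM in the lowest stratum, 2875 CPM in the next and between 3273 and 3713 CPM in the others. In LH replicate 2 PAEP was highest at 1311 CPM in the 50 to 70% stratum and lower above it, at 861 CPM in 21 cells and 645 CPM in 11 cells. LH replicate 1 had 303 CPM in the lowest stratum and 1549 CPM at 50 to 70%, and only 6 cells above that. The steady climb to the highest share was thus seen in 1 ewe.

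**Figure D4:**
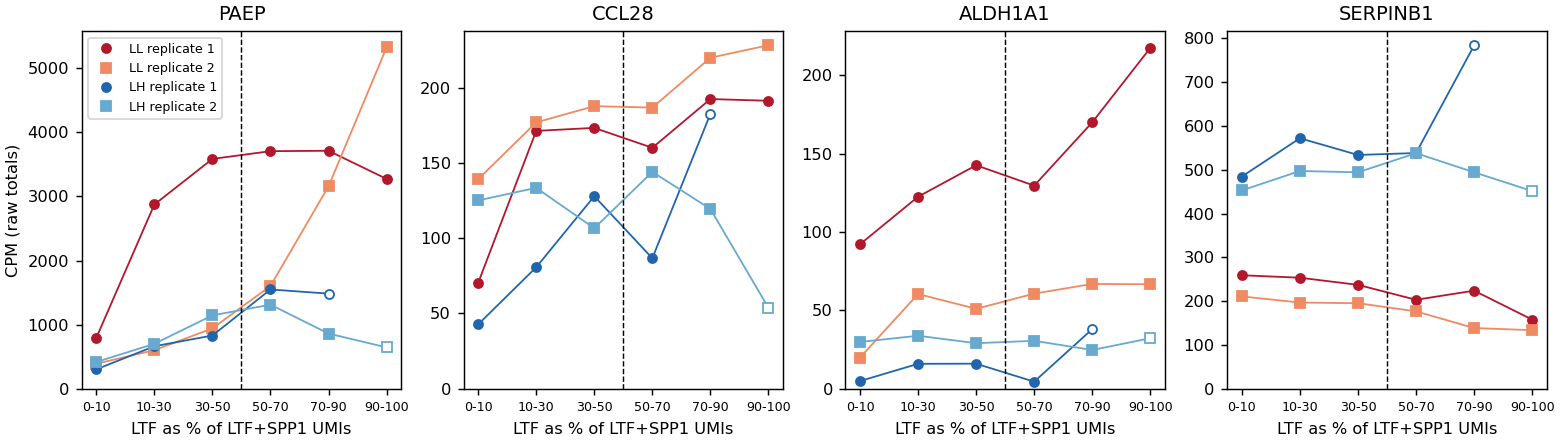
Each panel plots the level of 1 gene (CPM from unscaled totals) against the LTF share of LTF plus SPP1 UMIs, with 1 line per ewe. The dashed line at 50% separates SPP1>=LTF cells from LTF>SPP1 cells, and open points rest on under 20 cells. PAEP of LL replicate 2 reaches 5326 CPM at the right, whereas SERPINB1 lies between 134 and 259 CPM in LL and at or above 451 CPM in LH in every stratum.

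The last comparison asked how the LTF>SPP1 cells themselves differed between LL and LH ewes. Of 10209 genes 2 passed, both higher in LL and neither with a symbol (0.0196%), while the unadjusted p was under 0.05 for 1013 (9.92%). DESeq2 called 110. No overlap between the 2 LL and the 2 LH ewes was common, at 22% of all genes with LL higher and 20.2% with LL lower, 42.2% together, so it marks no gene out. ENSOARG00000002980 had 1492 and 6071 UMIs in LL, or 243 and 240 CPM, and 1 UMI in each LH ewe (edgeR adjusted p = 0.00224). ENSOARG00000010475 was at 499 and 503 CPM in LL and 53.5 and 70.6 CPM in LH (log2 3.00 ± 0.24; edgeR adjusted p = 0.0365). Neither passed without LH replicate 1 or without LH replicate 2. The 35 cells of LH replicate 1 and 100 of LH replicate 2 limit this comparison.

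No gene with a symbol passed in edgeR, while 8 did in DESeq2: ATP1B1, PAEP, ALDH1A1, CSN2, SERPINB1, MMP7, TLR3 and ITGB6. The following are given as values, with the edgeR result. Among milk proteins, PAEP was at 3532 and 3911 CPM in LL and 1647 and 1296 CPM in LH (log2 1.34 ± 0.24; edgeR adjusted p = 0.189). CSN2, which encodes beta-casein, was at 38.9 and 8.78 CPM in LL and had 0 UMIs in both LH ewes. Against a floor of 3 UMIs per library it was at least 7.39-fold higher in LL, and at least 2.72-fold with LL replicate 2 alone (edgeR adjusted p = 0.357). CSN3 was at 668 and 5.38 CPM in LL and 1.34 and 4.06 CPM in LH, so LL replicate 1 carried that difference. The CD3E cells of LL replicate 1, which should lack caseins, also held 59.4 CPM of CSN3 and 14.2 CPM of CSN2.

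ALDH1A1 was at 185 and 70.6 CPM in LL and 10.7 and 32.5 CPM in LH (log2 2.47 ± 0.61; edgeR adjusted p = 0.323). The difference was 1.64 without LL replicate 1, 3.60 without LH replicate 2 and 1.48 with thinned cells. CCL28 was at 186 and 233 CPM in LL and 110 and 146 CPM in LH (log2 0.71 ± 0.24; edgeR adjusted p = 0.432). ATP1B1, which encodes a sodium pump subunit, was at 495 and 600 CPM in LL and 245 and 226 CPM in LH (log2 1.22 ± 0.21; edgeR adjusted p = 0.189). Both LL ewes lay above both LH ewes for all these genes, as they did for 22% of all genes tested. The naming rule required it of PAEP, CSN2, ALDH1A1 and ATP1B1.

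ME1, malic enzyme and a source of NADPH, was at 33.0 and 28.8 CPM in LL and 9.37 and 10.5 CPM in LH (log2 1.62 ± 0.30; edgeR adjusted p = 0.196). SQLE, of cholesterol synthesis, was at 22.8 and 25.1 CPM in LL and 6.69 and 9.74 CPM in LH (log2 1.50 ± 0.34; edgeR adjusted p = 0.293). The LH values rest on 7 and 13 UMIs of ME1 and 5 and 12 UMIs of SQLE. The 12 tested milk fat genes had a median log2 difference of 0.35 beside 0.01 for all genes. Of them 7 lay above 0, 5 had both LL ewes above both LH ewes (22% of all genes did), and 0 passed in edgeR or DESeq2. CRY2 (a clock repressor), SLC25A33 (a mitochondrial nucleotide carrier) and UROD (of heme synthesis) also had higher values in LL, between 0.98 and 1.40 log2.

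SERPINB1, an intracellular inhibitor of neutrophil proteases, had the lowest p of the genes with a symbol and lower values in LL. It was at 188 and 155 CPM in LL and 620 and 574 CPM in LH (log2 -1.79 ± 0.22; edgeR adjusted p = 0.104). In SPP1>=LTF cells of the same ewes it was at 211 and 184 CPM in LL and 527 and 479 CPM in LH (log2 -1.35 ± 0.19; edgeR adjusted p = 0.136). MMP7 (matrilysin, a protease that epithelium secretes) was at 23.6 and 11.7 CPM in LL and 76.3 and 208 CPM in LH (log2 -3.07 ± 0.54; edgeR adjusted p = 0.189), and at -2.12 log2 without LH replicate 2. Its values in SPP1>=LTF cells were 73.7 and 69.3 CPM in LL and 204 and 87.6 CPM in LH.

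ITGB6, an integrin subunit of epithelium, was at 308 and 288 CPM in LL and 482 and 584 CPM in LH (log2 -0.84 ± 0.21; edgeR adjusted p = 0.325). CPT1A, which carries fatty acids into mitochondria, was at 19.8 and 25.1 CPM in LL and 61.6 and 45.4 CPM in LH. TLR3 (a sensor of double-stranded RNA), GGTA1, APOBEC3F (a cytidine deaminase) and TIMP1 (an inhibitor of metalloproteinases) lay between -1.68 and -0.65 log2. XCL1, a lymphocyte chemokine, was at 10.9 and 19.8 CPM in LL and 89.7 and 25.2 CPM in LH. Its log2 difference of -1.82 became -0.68 when LH replicate 1 was left out, and -2.49 when LH replicate 2 was. CD3E cells held 1287 and 2335 CPM of XCL1 in LL and 1940 and 1965 CPM in LH, and they numbered 1120 and 863 in LL and 2422 and 622 in LH. Their part in the XCL1 values was not tested.

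**Figure D5:**
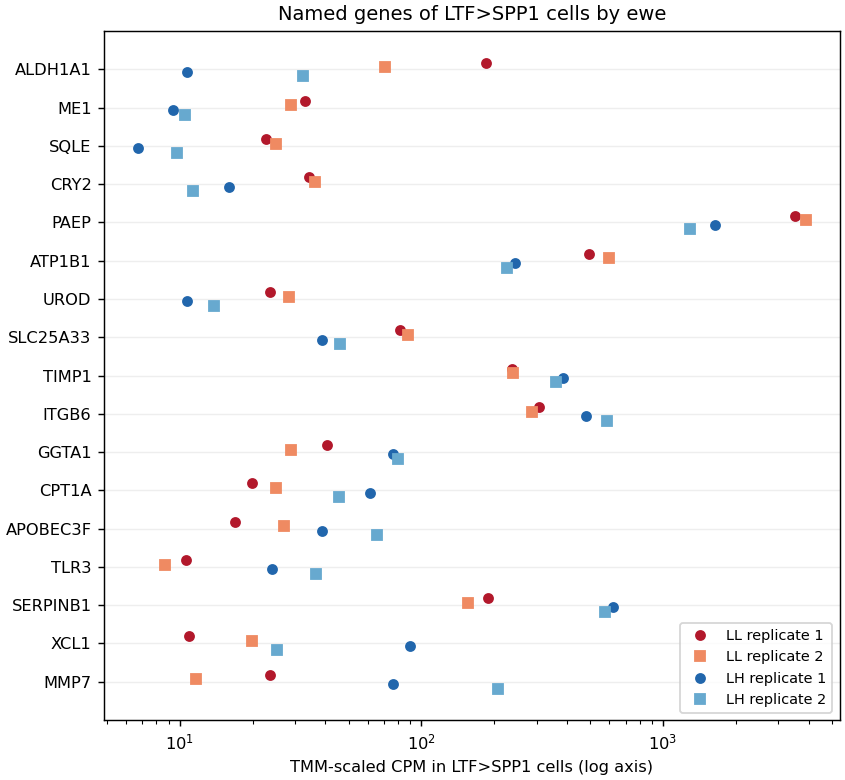
Points give the TMM-scaled CPM (log axis) of the named genes in LTF>SPP1 cells of each ewe, without CSN2, which had 0 UMIs in LH. The genes above TIMP1 have both LL ewes right of both LH ewes. TIMP1 and those under it have both LL ewes left of them. The naming rule required this separation, and none of these genes passed edgeR's threshold.

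Whether the stage difference was unlike in the classes was tested as an interaction. Of 11373 genes 3 passed (0.0264%), none with a symbol, and 600 had an unadjusted p under 0.05. The named marker genes of the class thus gave no call, and a missed threshold does not show that the classes differ alike between stages. For MMP7 the interaction was -2.24 ± 0.62 log2 (edgeR adjusted p = 0.572), and -0.70 without LH replicate 2. The MMP7 interaction did pass with thinned cells and without the low count filter.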

How the data were processed

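Counts were UMIs per gene and barcode as deposited, unnormalized, made with Cell Ranger (7.2.0 per the file headers, 5.0.1 per the submitters' processing notes, which list STAR and Seurat 3.2.0 too). Neither build nor annotation is given in the sources used here. Of 20150 genes 774 had a symbol; 0 identifiers matched the supplied reference table, which held 762 of the symbols, so no coordinates or sequences are given. The members and gene lists were chosen with earlier results of these data known.

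Libraries were grouped by their titles. Mitochondrial UMIs were counted over 13 genes. UMIs were summed per ewe and class and tested with edgeR 4.0.16 (R 4.3.3; TMM, filterByExpr with a minimum count of 10, quasi-likelihood test, Benjamini-Hochberg adjusted p under 0.05 over all genes tested), with the 7 genes of the rule left out. SE is the log2 difference divided by the square root of F. Shares were compared with scipy 1.17.1. The scripts were tested on simulated counts with known changes. Doublets were scored per library with Scrublet in scanpy 1.11.5 and kept in the main results; in LH replicate 1, where the automatic threshold marked almost no cell, the highest 6% of scores were used, giving 322 calls.

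Named genes had a symbol and at least 20 CPM in a group: for the class, up to 15 largest differences each way past the threshold with the same direction in 4 ewes; for the stages, as no gene with a symbol passed in edgeR, the 10 lowest p each way without overlap. Of the genes so chosen, 2 are not reported here. List members, interaction genes and genes without a symbol (at most 2 each way) were added. The alternatives were DESeq2 1.42.0, RLE or no scaling, no low count filter, rule genes kept, a margin of 3 UMIs, doublets left out, a 10% mitochondrial limit, cells thinned to 3000 UMIs, other blocks, each ewe left out and, chosen after seeing the data, unscaled totals and cells with neither gene left out.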

Additional observations from a re-analysis of the deposited data

Results flagged for a closer look

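Genes chosen by the naming rule, and those given for the interaction, were searched for class differences that changed direction between stages. In 5 of them the difference between LTF>SPP1 and SPP1>=LTF cells ran one way in both LL ewes and the other way in both LH ewes. CSN3, added from the lists, had this pattern too, at 4.06 against 4.24 CPM in LH replicate 2. The share of all genes with this pattern was not counted, so the pattern marks no gene out. ENSOARG00000020976 passed the interaction test, with 127 and 79.0 CPM in LTF>SPP1 cells against 47.1 and 33.5 CPM in SPP1>=LTF cells of LL, and 37.5 and 64.1 against 59.9 and 90.2 CPM in LH (interaction log2 1.91; edgeR adjusted p = 0.0212). ENSOARG00000000229 passed as well, with 111 and 56.2 against 108 and 40.3 CPM in LL and 9.37 and 1.62 against 106 and 6.46 CPM in LH, where LTF>SPP1 cells held 7 and 2 UMIs (interaction log2 3.50; edgeR adjusted p = 0.0212); without LH replicate 1 its interaction was 2.26. Neither gene passed with a margin of 3 UMIs, without cells of neither gene, with thinned cells, without LH replicate 1 or with the replicate number as a block.

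The other three did not pass the interaction test. SERPINB1 was lower in LTF>SPP1 cells of both LL ewes and higher in those of both LH ewes (interaction log2 -0.44; edgeR adjusted p = 0.859). SQLE was at 22.8 and 25.1 against 22.6 and 23.4 CPM in LL and 6.69 and 9.74 against 16.3 and 10.4 CPM in LH (interaction log2 0.61, and 1.35 without LH replicate 2; edgeR adjusted p = 0.984). UROD was at 23.6 and 28.4 against 20.4 and 24.8 CPM in LL and 10.7 and 13.8 against 14.8 and 21.1 CPM in LH (interaction log2 0.78; edgeR adjusted p = 0.926). LTF>SPP1 cells of LH held only 5 and 12 UMIs of SQLE and 8 and 17 UMIs of UROD.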

How the results depend on the processing

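The count of 2 genes between LL and LH in LTF>SPP1 cells was 110 with DESeq2, 326 without the low count filter, 1 with a margin of 3 UMIs and 0 to 232 with an ewe left out (0 without either LH ewe). The count of 439 between classes was 1126 without the filter, 253 with the margin, 261 with thinned cells, 0 without the ewe block and 73 to 509 with an ewe left out. The count of 3 for the interaction was 5 with DESeq2, 103 without the filter, 0 with the margin, 5 without doublet calls, 5 at the 10% mitochondrial limit, 5 with thinned cells, 0 without cells of neither gene and 1 to 214 with an ewe left out. The share difference of 55.8 percentage points was 7.48 over all barcodes and 42.8 to 68.9 with an ewe left out. The cause of these moves was not tested. With the replicate number as a block, the stage count was 20 and the interaction count 0. Same-numbered samples, each taken as its deviation from the stage mean, correlated at -0.0962 over 10209 genes. With 2 ewes per stage both replicate numbers give the same value, so it cannot decide whether the numbers pair the ewes. Of the genes chosen by the naming rule none changed direction under the alternatives run. Of those added from the lists, CSN3 and STAT5A, which had no call, did between classes. CSN3 was at -0.37 log2 with the margin and -0.28 without cells of neither gene. STAT5A was at -0.0157 with the margin, -0.00973 with thinned cells and -0.10 with unscaled totals. With unscaled totals 3 of 6 nuclear oxidative phosphorylation genes lay above 0, against 6 with TMM. Of the 23 class genes chosen by the naming rule, 18 lost their call without LL replicate 2, and PAEP, KDR, UBB and GHR kept it with any single ewe left out.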
